A study of Mus musculus with 22 samples.

Results

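Dual-function loops join 2 sites that each carry both CTCF with cohesin and an active regulatory element. The loops described here are the long ones, those in the deposited loop table that the authors placed in the dual-function category and whose anchors lie more than 200 kb apart. There are 1609 of them among 3370 dual-function loops and 16370 loops in all, on 20 chromosomes (1 to 19 and X). Their median size was 400 kb, with quartiles at 280 and 650 kb and a range of 210 to 2000 kb. The loop summit, which is the pixel with the lowest q value in the authors' loop call, was 10 kb wide in 1104 of them (68.6%) and 25 kb wide in the other 505 (31.4%).

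In situ Hi-C, which counts ligated pairs of DNA ends that lay close together in the nucleus, was run on G1E-ER4 cells, a subline of a mouse proerythroblast line that lacks GATA1. In all groups CTCF carried an auxin-inducible degron and mCherry, and the auxin receptor OsTiR came from a retroviral vector. The controls received no auxin, and the sort gates differed too, with mCherry-positive cells collected as controls and mCherry-negative cells as +auxin samples. Nocodazole held the cells in prometaphase (0 min), and release from it gave ana/telophase (30 min by the sample titles, slightly less by the treatment protocol), early-G1 (60 min) and mid-G1 (120 min). In the +auxin groups the auxin was present late in the arrest and after release, so CTCF was removed before mitotic exit. The 18 libraries of these 8 groups comprise 3 replicates of each mid-G1 group and 2 of every other. The ana/telophase cells came from a second transduced line, whose GFP carries a mitotic degron, so stage and line cannot be told apart at that stage. Tables without expression values give no means of checking the erythroid label against marker genes.

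The loop table used here gives each loop 1 strength per group, measured on the map of the merged replicates. Contact maps of single replicates were not analysed here, so the values below carry no replicate error and no test between treatments, and the counts and medians describe the 8 merged maps. Loop strength is the mean, over the summit pixel and its 8 neighbours, of observed contacts divided by those expected from a surrounding donut of pixels, so that 1 means no enrichment. The change with auxin is the log2 of the +auxin strength over the -auxin strength, negative where the loop was weaker without CTCF. Errors given after ± are the SD over the medians of single chromosomes, which shows how even a value was along the genome but does not replace biological replicates. The number of reads behind a single loop is not given by the tables and the precision of single values is therefore unknown.

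Cohesin extrudes chromatin into growing loops and pauses where it meets CTCF, most readily at sites whose motifs point towards each other. Promoters and enhancers, the cis-regulatory elements or CREs, can also find each other without CTCF. A structural loop in these data has CTCF with cohesin at both anchors and a CRE at no more than 1 of them, and a CRE loop has CREs at both anchors and CTCF with cohesin at no more than 1. These labels rest on ChIP-seq peaks within the 30 kb around each anchor midpoint. CTCF leaves most of its sites in mitosis and returns in ana/telophase, and loops are rebuilt from there.

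The CTCF motif was searched on the mm9 (NCBIM37) genome in the 30 kb around each anchor midpoint, on both strands, as exact matches to the CTCF core consensus. A match lay at 1047 of the 3218 anchors of long dual-function loops (32.5%, Wilson 95% interval 30.9 to 34.2), against 6.99% of all 30 kb windows of the genome. The category requires CTCF with cohesin at both anchors, so a share above that of the genome follows from the definition. The share was 36.8% for structural and 11.6% for CRE loops above 200 kb, and 31.3% for dual-function loops of up to 200 kb. An anchor shared by several loops was counted once for each loop. The sequences below were chosen because they belong to loops named further on whose matches point towards each other, or to a downstream anchor shared by 4 loops. Capitals mark the core match, and each sequence reads 5′ to 3′ along the strand of its motif. The first 4 belong to one upstream anchor on chromosome 1 and to anchors of 3 of the 6 loops that start there.
Shared upstream anchor near Dusp12, chr1:172831083-172831122, + strand, no protein-coding gene: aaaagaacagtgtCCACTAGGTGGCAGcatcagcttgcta
Shared upstream anchor near Dusp12, chr1:172831894-172831933, + strand, no protein-coding gene: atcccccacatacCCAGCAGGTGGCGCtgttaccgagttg
Downstream anchor, chr1:173151116-173151155, - strand, intron of Tomm40l: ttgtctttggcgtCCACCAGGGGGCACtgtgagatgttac
Downstream anchor, chr1:173177260-173177299, - strand, no protein-coding gene: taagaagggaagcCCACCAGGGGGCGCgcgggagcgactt
Upstream anchor of the Pfkl to Cdc34 loop, chr10:77481631-77481670, + strand, no protein-coding gene: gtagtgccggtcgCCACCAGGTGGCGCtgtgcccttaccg
Downstream anchor of the Pfkl to Cdc34 loop, chr10:79146227-79146266, - strand, intron of Cdc34: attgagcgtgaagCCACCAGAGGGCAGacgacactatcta
Upstream anchor of the Pfkfb4 to Cdc25a loop, chr9:108902942-108902981, + strand, intron of Pfkfb4: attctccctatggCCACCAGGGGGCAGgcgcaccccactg
Downstream anchor of the Pfkfb4 to Cdc25a loop, chr9:109765105-109765144, - strand, no protein-coding gene: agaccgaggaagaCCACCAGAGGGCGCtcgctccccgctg
Shared downstream anchor near Kif14, chr1:138355658-138355697, - strand, no protein-coding gene: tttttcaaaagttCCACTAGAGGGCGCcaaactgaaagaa

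Without auxin, long dual-function loops went from little enrichment in prometaphase to nearly their mid-G1 strength by early-G1. Over the stages in order, their median strengths were 1.18 ± 0.06, 1.81 ± 0.13, 2.18 ± 0.20 and 2.22 ± 0.26. With auxin the medians were 1.14 ± 0.06, 1.5 ± 0.06, 1.68 ± 0.08 and 1.63 ± 0.07. The +auxin medians were thus also higher after mitosis than in it, with the highest in early-G1. Single loops ranged from 0.633 to 10.2 in mid-G1 -auxin cells and from 0.422 to 6.14 in mid-G1 +auxin cells.

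**Figure D1:**
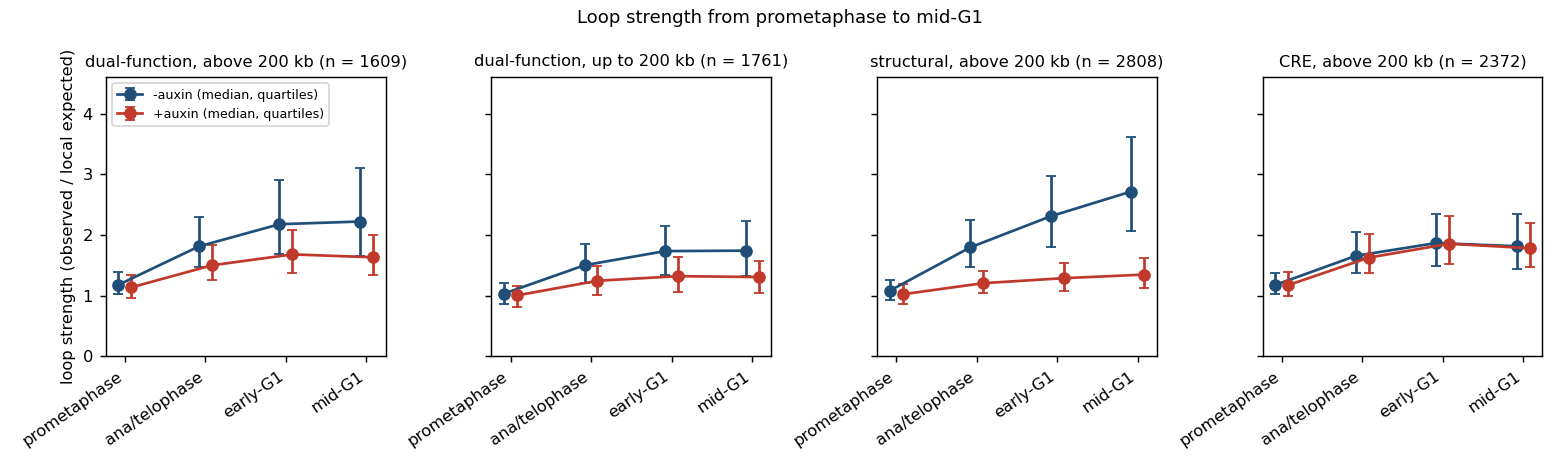
Loop strength (observed over locally expected contacts, no unit) at 4 stages in -auxin (blue) and +auxin (red) maps for dual-function loops above and up to 200 kb, structural loops above 200 kb and CRE loops above 200 kb. Points are medians over loops and bars run from the lower to the upper quartile. Long dual-function loops reach a median of 2.22 without and 1.63 with auxin in mid-G1, between the wide gap of structural loops and the near-overlap of CRE loops.

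The median log2 change with auxin was -0.06 ± 0.10 for prometaphase, then -0.24 ± 0.08, -0.37 ± 0.10 and, for mid-G1, -0.41 ± 0.14. The prometaphase value was smaller than the spread of the chromosomes and the later ones were larger. By mid-G1, 1246 loops (77.4%, 75.3 to 79.4) were weaker with auxin, against 77.1% of all loops in the table. In all 3 post-mitotic stages 995 loops (61.8%) were weaker, against 61.4% of all loops, and 209 were stronger (13%, all loops 12.5%). The median change over all loops was -0.38 in mid-G1, a mixture of categories that differ widely, and the long dual-function median lay 0.03 below it on the log2 scale.

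Changes of at least 1.5 times gave the same order of stages. In mid-G1, 629 long dual-function loops (39.1%, 36.7 to 41.5) were at least 1.5 times weaker with auxin, where all loops gave 36.7%, and 49 (3.0%, 2.3 to 4.0) were at least 1.5 times stronger, where all loops gave 2.83%. Centred on the median change of all loops, the shares were 19.5% weaker and 13.1% stronger, and with a pseudocount of 0.5 they were 30.0% and 1.1%. In early-G1 the counts were 566 weaker (35.2%, 32.9 to 37.5, all loops 31.4%) and 47 stronger (2.9%, all loops 2.55%). In ana/telophase they were 388 weaker (24.1%, 22.1 to 26.3, all loops 20.4%) and 20 stronger (1.2%, all loops 0.886%). Prometaphase, where most loops have almost no enrichment, gave 172 weaker (10.7%, all loops 9.52%) and 99 stronger (6.2%, all loops 6.46%). The share of weaker loops was thus above that of the whole table by 1 to 4 percentage points at each stage. The intervals cover counting error only, many loops share an anchor, and the whole table includes these loops. Whether the shares differ was therefore not tested.

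The change of a given loop carried over from stage to stage after mitosis. Across the 1609 loops, Pearson's r between the changes was 0.74 for ana/telophase and early-G1, 0.74 for ana/telophase and mid-G1 and 0.84 for early-G1 and mid-G1. The prometaphase change had an r of 0.08 with the ana/telophase change. These are correlations across loops in the same maps, and loops that share an anchor are not independent.

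In timing, the long dual-function loops stood between CRE loops and structural loops of similar length. Without auxin their mean strength had covered 58.8% ± 5.4 of its prometaphase to mid-G1 difference at ana/telophase and 93.8% ± 5.8 at early-G1 (SD over the 19 chromosomes with at least 10 loops). Structural loops above 200 kb had covered 44.0% ± 2.4 and 73.4% ± 3.5, and CRE loops above 200 kb 72.5% ± 6.5 and 103.6% ± 7.6. Dual-function loops of up to 200 kb had covered 64.5% ± 4.5 and 94.7% ± 2.5, which differs from the long loops by about the spread of the chromosomes or less. With auxin the long dual-function values were 75% ± 8.1 and 108.2% ± 9.8, of a smaller difference. A value over 100% means that the mean strength was higher in early-G1 than in mid-G1.

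Without auxin 770 of the 1609 loops (47.9%, 45.4 to 50.3) had their highest strength in mid-G1, 632 (39.3%) in early-G1, 148 (9.2%) in ana/telophase and 59 (3.7%) in prometaphase. With auxin early-G1 held the most, 693 loops (43.1%), and mid-G1 534 (33.2%, 30.9 to 35.5). Over all loops the -auxin shares were 57.8% in mid-G1 and 30.5% in early-G1, and the +auxin shares 37.7% and 38.7%. Of structural loops above 200 kb, 83.2% stood highest in mid-G1 without auxin.

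The authors also recorded the first stage at which each loop was called in each treatment. Counted cumulatively over the post-mitotic stages, 364, 972 and 1352 long dual-function loops had been called without auxin (22.6%, 60.4% and 84.0%, against 17.7%, 51.9% and 85.4% of all loops). With auxin the counts were 170, 425 and 499, of which 1 was called in prometaphase (10.6%, 26.4% and 31.0%, against 8.0%, 23.4% and 28.9% of all loops). Calls made only in -auxin cells covered 1110 loops (69.0%, 66.7 to 71.2, against 71.1% of all loops), calls in both treatments 242 (15.0%, 13.4 to 16.9, against 14.4%) and calls only in +auxin cells 257 (16.0%, 14.3 to 17.8, against 14.6%). Of structural loops above 200 kb, 0.71% were called only in +auxin cells. The authors had removed pixels called in nearly all 8 maps, which limits how many loops the table can hold in the class called in both. Among the pixels added with the support of single replicates, they also removed those brightest in prometaphase -auxin cells.

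The strengths of these 3 classes come from the same maps as the calls, so their differences are a description. Loops called only in -auxin cells had mid-G1 medians of 2.40 (-auxin) and 1.56 (+auxin) and a median change of -0.63 ± 0.11. Loops called in both had 2.35 and 2.00, a change of -0.16 ± 0.15. Loops called only in +auxin cells had 1.43 and 1.65, a change of 0.21 ± 0.11. Among these 257 loops, 24.5% were nonetheless weaker with auxin in mid-G1, so a call and the order of the mid-G1 strengths did not always go together.

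**Figure D2:**
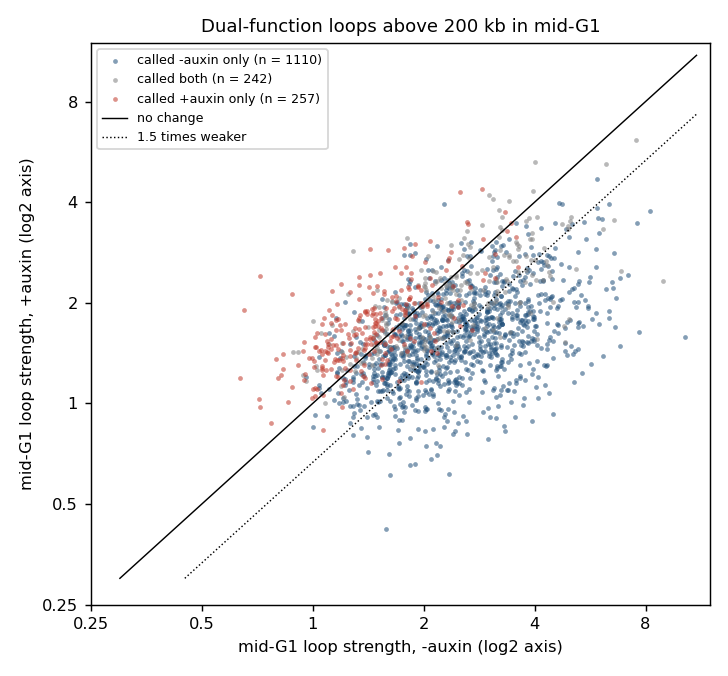
Mid-G1 loop strength of the 1609 long dual-function loops, -auxin on the horizontal and +auxin on the vertical axis (both log2 axes, observed over locally expected contacts), coloured by the treatment in which the authors called the loop. The solid line marks equal strength and the dotted line 1.5 times weaker with auxin, and 629 loops lie on or beyond the dotted line.

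Against dual-function loops of up to 200 kb (1761 loops, median size 110 kb), the long loops were stronger in both treatments but differed little in their change. The -auxin medians of the short loops were 1.03, 1.5, 1.73 and 1.74 over the 4 stages, and the long loops had the higher -auxin median on 20 of 20 chromosomes at every stage. In +auxin mid-G1 cells they had the higher median on 19 of 20. The mid-G1 change was -0.41 ± 0.14 in long and -0.46 ± 0.07 in short loops, and the long loops had the less negative median on 10 of 20 chromosomes. The sign of that difference depends on the summit width. With 10 kb summits only, the change was -0.58 in 1104 long and -0.48 in 1695 short loops, a difference of -0.11 ± 0.19 (SD of the chromosome differences), and the long loops were the more negative on 15 of 19 chromosomes.

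The change was similar on both sides of the size limit. The 57 loops of 210 kb, just inside, had median mid-G1 strengths of 2.15 and 1.62 and a change of -0.45, and the 90 loops of 200 kb, just outside, had 1.92 and 1.36 and a change of -0.43. The first hold no 25 kb summits and the second 18.9%.

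Against structural loops of the same length (2808 loops above 200 kb, also with a median size of 400 kb), long dual-function loops were weaker in -auxin and stronger in +auxin mid-G1 cells. The structural medians were 2.72 and 1.35, and the dual-function medians were lower in -auxin cells on 19 of 20 chromosomes and higher in +auxin cells on 20 of 20. The structural change was -0.98 ± 0.10, and the dual-function change was less negative by 0.57, in the same direction on 20 of 20 chromosomes. With 10 kb summits only the difference was again 0.57 ± 0.22 and held on 18 of 19 chromosomes. CRE loops above 200 kb (2372 loops) had mid-G1 medians of 1.81 and 1.78 and a change of -0.01 ± 0.07. Long dual-function loops with 10 kb summits were stronger than these in -auxin cells (2.60 against 2.12) and weaker in +auxin cells (1.76 against 2.02), each on 19 of 19 chromosomes. The dual-function change thus lay between those of the structural and the CRE loops.

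Longer dual-function loops had less negative changes over all summits, and the share of wide summits differed along with size. The median mid-G1 change was -0.48 ± 0.18 for 542 loops of 200 to 300 kb, -0.50 ± 0.21 for 494 of 300 to 500 kb, -0.35 ± 0.17 for 382 of 500 to 1000 kb and -0.21 ± 0.13 for 191 of 1000 to 2000 kb. The share of 25 kb summits went up along the same series, from 16.2% to 69.1%. Within 10 kb summits the 4 values were -0.58, -0.66, -0.59 and -0.39, and within 25 kb summits -0.13, -0.22, -0.18 and -0.17. Over all 25 kb summits the median change was -0.18 ± 0.12, against -0.58 ± 0.17 for 10 kb summits, and the 25 kb value was the less negative on 19 of 19 chromosomes. Spearman's rho between size and change was 0.11 over all 1609 loops and -0.02 over the 1104 with 10 kb summits. In structural loops with 10 kb summits the change went from -0.99 ± 0.15 at 200 to 300 kb to -1.59 ± 0.47 at 1000 to 2000 kb.

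**Figure D3:**
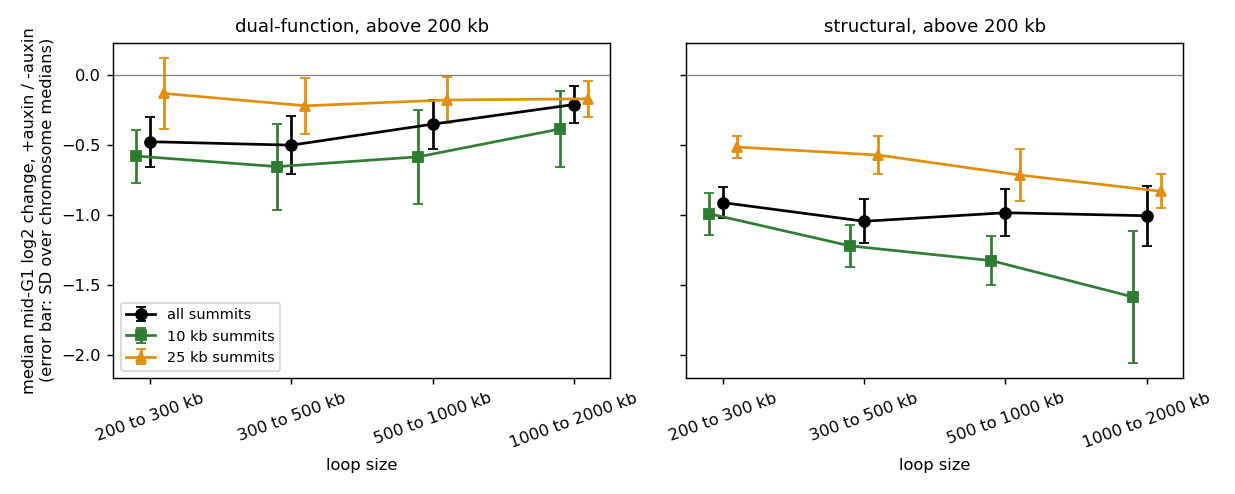
Median mid-G1 log2 change with auxin in 4 size classes of dual-function (left) and structural (right) loops above 200 kb, for all summits and for 10 kb and 25 kb summits apart, with the SD over chromosome medians as error bars. In dual-function loops 25 kb summits stay between -0.13 and -0.22 at every size, and the values over all summits move from near the 10 kb line to near the 25 kb line.

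Strength, unlike the change, went up with size within 10 kb summits. The median mid-G1 -auxin strength of these dual-function loops was 2.25 at 200 to 300 kb, 2.74 at 300 to 500 kb, 3.10 at 500 to 1000 kb and 3.53 at 1000 to 2000 kb. In +auxin cells the values were 1.61, 1.77, 2.07 and 2.49. The 59 longest loops of this kind thus had a higher median with auxin than the shortest had without it. In structural loops with 10 kb summits the mid-G1 -auxin median also went up with size, with 2.71, 3.21, 3.85 and 4.48 in the same classes.

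Domain boundaries, sites across which contacts are insulated, were called by the authors on the same maps and are a separate readout. A boundary lay within 20 kb of both anchors in 222 long dual-function loops (13.8%), of 1 anchor in 730 (45.4%) and of neither in 657 (40.8%). The share with both was 3.48% within 10 kb and 34.6% within 40 kb. Structural loops above 200 kb had boundaries at both anchors in 13.9% and short dual-function loops in 4.7%. The median change was -0.65 ± 0.23 with a boundary at both anchors, -0.50 ± 0.13 with 1 and -0.24 ± 0.17 with none. Loops with 2 boundaries had the more negative median on 16 of 18 chromosomes compared with loops with none, and on 15 of 17 with 10 kb summits only. The -auxin mid-G1 strengths of the 3 classes were 2.62, 2.34 and 2.00, and the +auxin strengths were nearly level at 1.64, 1.60 and 1.69.

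The boundaries themselves had lower strengths with auxin. At the anchors of long dual-function loops lay 751 boundaries, whose median strength, the insulation difference ΔIS, was 1.04 without and 0.656 with auxin in mid-G1. Their median log2 change was -0.65 ± 0.16, and 88.5% were weaker, compared with a median of -0.48 and 75.5% over all 6376 boundaries. Boundaries at the anchors of short dual-function loops had -0.72 and 87.1%, and those at structural loops above 200 kb -0.87 and 94.5%. In prometaphase the same boundaries had 0.130 and 0.106. Of the 751, 53.8% belonged to the authors' boundary cluster 2, 26.4% to cluster 3 and 17.3% to cluster 1. Over all 6376 boundaries the shares were 31.9%, 27.1% and 20.4%, and cluster 2 held 56.3% at short dual-function and 51.0% at structural anchors.

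Transcription starts of protein-coding genes (GENCODE vM1) lay within the 30 kb around both anchors of 979 long dual-function loops (60.8%), around 1 anchor of 512 (31.8%) and around neither of 118 (7.3%). Counted in the summit bins themselves, the share with both was 36.5%. The corresponding share for both anchors was 14.3% in structural loops and 66.0% in CRE loops above 200 kb. Loops between 2 such starts had a median change of -0.29 ± 0.15, with 20.6% called only in +auxin cells. Loops with a start at 1 anchor had -0.58 ± 0.15 and loops with none -0.75 ± 0.42, with 10.0% and 3.4% called only in +auxin cells. Loops between 2 starts had the less negative median on 17 of 19 chromosomes compared with the rest, and on 18 of 19 with 10 kb summits only.

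The orientation of CTCF motifs could be read at only a small part of the loops. Exact core matches on 1 strand at each anchor occurred in 152 long dual-function loops, of which 74 (48.7%, 40.9 to 56.6) were convergent, 59 tandem and 19 divergent. Convergent loops were 4.6% of the 1609, 7.02% with a shorter core and 2.36% in the summit bins alone. The convergent share was 64.1% (58.9 to 68.9) of 348 structural loops above 200 kb and 43.5% (35.9 to 51.4) of 154 short dual-function loops. Convergent long dual-function loops had a median change of -0.64 ± 0.24 and 85.1% were called only in -auxin cells, among them the loops of the Tomm40l and Dusp12 sequences printed above. The 59 tandem loops had -0.40 ± 0.26 and 69.5%, and the 19 divergent loops -0.22 and 47.4%. Another 20 loops had matches on both strands at an anchor, and 1437 had no match at 1 or both anchors.

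Long dual-function loops also differed by the structural loops around them. A structural loop that had 1 anchor inside and the other outside the dual-function loop, and so crossed it, was found for 900 of the 1609 (55.9%). Crossed loops had a median change of -0.29 ± 0.16 and uncrossed loops -0.62 ± 0.16, with the crossed median less negative on 19 of 19 chromosomes. With 10 kb summits only, the values were -0.45 and -0.71, and the order held on 17 of 19 chromosomes. Crossed and uncrossed loops had +auxin mid-G1 strengths of 1.63 and 1.64 and -auxin strengths of 2.05 and 2.49. The medians of crossed and uncrossed loops thus stood apart without auxin and were nearly level with it. The less negative change of crossed loops was not particular to this set. Short dual-function loops had -0.26 crossed and -0.54 uncrossed, and structural loops above 200 kb had -0.91 and -1.07.

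The 237 loops that lay wholly inside a structural loop (14.7%) had a median change of -0.65 ± 0.24, and the rest -0.37 ± 0.15. A structural loop lay inside 803 long dual-function loops (49.9%), with a median change of -0.26 ± 0.16 against -0.60 ± 0.17 where none did. A CRE loop lay inside 867 (53.9%, 51.4 to 56.3), and here the medians rounded to the same value, -0.41 with and -0.41 without one. With 10 kb summits only they were -0.62 and -0.56, the former more negative on 13 of 19 chromosomes. Among structural loops above 200 kb, 25.1% lay inside a structural loop, 40.4% held a structural loop and 38.4% a CRE loop. Among CRE loops above 200 kb the shares were 16.8%, 46.0% and 50.1%. Crossing, holding and size are not independent of each other, and their separate parts were not tested.

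**Figure D4:**
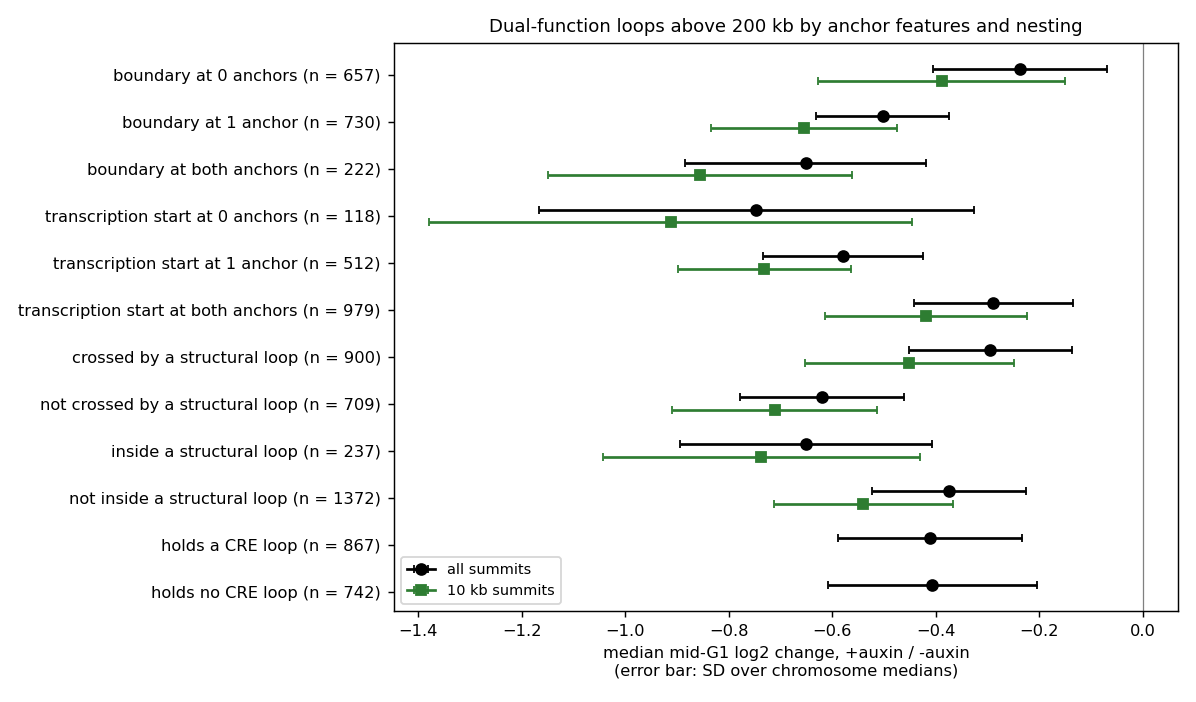
Median mid-G1 log2 change with auxin (horizontal axis) of long dual-function loops by boundaries at their anchors, protein-coding transcription starts at their anchors, and structural or CRE loops that cross, surround or lie inside them. Circles are all summits, squares 10 kb summits only (not drawn for CRE loops inside) and bars the SD over chromosome medians, and crossed loops (-0.29) stand to the right of uncrossed ones (-0.62).

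Anchors were often shared. The 1609 loops used 2671 anchor bins, of which 2234 served 1 loop, 347 served 2 and 90 served 3 or more, and 818 loops (50.8%) shared an anchor with another long dual-function loop. Among the 90 bins with 3 or more, 31 were the upstream and 29 the downstream anchor of all their loops, and 30 were used on both sides. Of the 31 upstream bins, 9 had motif matches only on the + strand, pointing into their loops, 4 only on the - strand and 18 none. Of the 29 downstream bins, 12 had matches only on the - strand, again pointing into their loops, 2 only on the + strand and 15 none.

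The bin used most, chr1:181780001-181790000, lies outside protein-coding genes and was the upstream anchor of 8 long dual-function loops of 270 to 570 kb. Among their downstream anchors were sites at Cdc42bpa, a kinase gene, at Adck3, a gene for coenzyme Q synthesis, at Psen2, a presenilin subunit of gamma-secretase, and at Itpkb, an inositol phosphate kinase. Mid-G1 strengths ran from 2.32 to 3.96 without and from 1.38 to 1.80 with auxin. All 8 were weaker with auxin, with changes of -1.14 to -0.38, and 7 were called only in -auxin cells. Of the 1609 loops 77.4% were weaker in mid-G1 and 69.0% were called only in -auxin cells (77.1% and 71.1% of all loops). The 8 loops share a bin and are not separate measurements.

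The next bin, chr1:172820001-172830000, whose 30 kb window holds the start of the phosphatase gene Dusp12, was the upstream anchor of 6 loops of 210 to 600 kb. Among them were loops to the starts of Nr1i3 (a nuclear receptor), Fcer1g (an Fc receptor chain), Adamts4 (a metalloprotease) and Ufc1 (a ufmylation enzyme). Their changes ran from -0.84 to -0.04. All 6 were called only in -auxin cells, against 69.0% of the 1609 and 71.1% of all loops, but they share a bin and are not separate measurements. The bin chr1:138350001-138360000 near Kif14, a mitotic kinesin gene, was the downstream anchor of 4 loops with changes of -0.97 to -0.48, and other bins also served 4.

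The loop with the highest mid-G1 -auxin strength also had the most negative change of the 1609. It joined an exon of Aldh8a1 (chr10:21100001-21110000) to a site near Sgk1, a serum-regulated kinase gene (chr10:21720001-21730000). Its -auxin strengths over the 4 stages were 1.42, 5.82, 7.12 and 10.2. Its +auxin strengths were 0.88, 2.0, 2.22 and 1.58, which gave a mid-G1 change of -2.69. The +auxin strength was thus the lower at every stage, with a log2 change of -0.69 already in prometaphase.

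The other most weakened loops, at Fbxo2 and Calcrl, were picked among loops lower with auxin at all 3 post-mitotic stages. The other strongest loops, at Rad51l1 and Rgs6, were picked without that condition and were also lower at these stages. The loop from Fbxo2, a ubiquitin ligase subunit, to Masp2 and Tardbp, the gene of the RNA-binding protein TDP-43, on chromosome 4 had 1.53, 2.86, 3.27 and 4.50 without auxin, and no more than 1.28 at any stage with it. The loop to the start of Calcrl, a peptide hormone receptor, on chromosome 2 had 7.67 without and 1.64 with auxin in mid-G1, but 0.758 and 1.98 in prometaphase. A loop from an intron of Rad51l1, a DNA repair gene, on chromosome 12 had 8.91 and 2.33 in mid-G1 and 0.621 and 1.29 in prometaphase, and one from an exon of Rgs6, a regulator of G protein signalling, 8.20 and 3.76 in mid-G1. No CTCF core match was found at 1 or both anchors of each of these 5 loops, as in 1437 of the 1609 (89.3%).

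Among loops with higher +auxin than -auxin strengths at each of the 3 stages after mitosis, those with the largest mid-G1 change were weak without auxin. The loop from the starts of E2f4, a cell cycle transcription factor, and Elmo3 to an exon of Fam65a on chromosome 8 went from 1.53 to 0.881 in -auxin cells and stood at 2.11, 2.13 and 2.12 in the 3 post-mitotic stages with auxin. The loop from Cuta and Phf1 to Lemd2, an inner nuclear membrane protein gene, on chromosome 17 had 0.901, 0.795 and 0.653 without and 1.61, 1.85 and 1.90 with auxin after mitosis. The loop from Ctse to Nucks1 on chromosome 1 had 0.72 and 2.40 in mid-G1, but its earlier values differed little between treatments (1.08 and 1.14, then 0.856 and 0.927). In each of these 3 loops the mid-G1 -auxin value was under 1, that is, below the local expectation. Picking loops by the largest positive change favours low -auxin values, so this is not a separate result.

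Some loops were nearly equal in both treatments in mid-G1, taken among those at 2.5 or more in each. The Pfkl to Cdc34 loop of 1670 kb on chromosome 10, which joins a glycolytic enzyme gene to the gene of a ubiquitin-conjugating enzyme, had 1.11, 1.93, 3.05 and 3.45 without and 1.14, 1.54, 1.75 and 3.47 with auxin. It has the convergent motif sequences printed above, and its change was -0.80 in early-G1 and 0.01 in mid-G1. The loop from Gpr65 to Zc3h14 on chromosome 12 had 3.26 and 3.29 in mid-G1. A loop to a group of histone genes on chromosome 13 (Hist1h2ai, Hist1h2bl, Hist1h3h) had 2.86 in both.

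The longest loops measured 2000 kb, and 3 of them are given here. One joined 2 groups of replication-dependent histone genes on chromosome 13 (chr13:21825001-21850000 and chr13:23825001-23850000) and had 1.69, 2.34, 3.44 and 4.06 without and 1.41, 2.58, 4.15 and 3.62 with auxin. The one from an exon of Dars, near the start of the replicative helicase gene Mcm6, on chromosome 1 had 4.54 and 2.91 in mid-G1. The one that ends at the starts of Cog1 and Slc39a11 on chromosome 11 had 2.19 and 1.16.

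**Figure D5:**
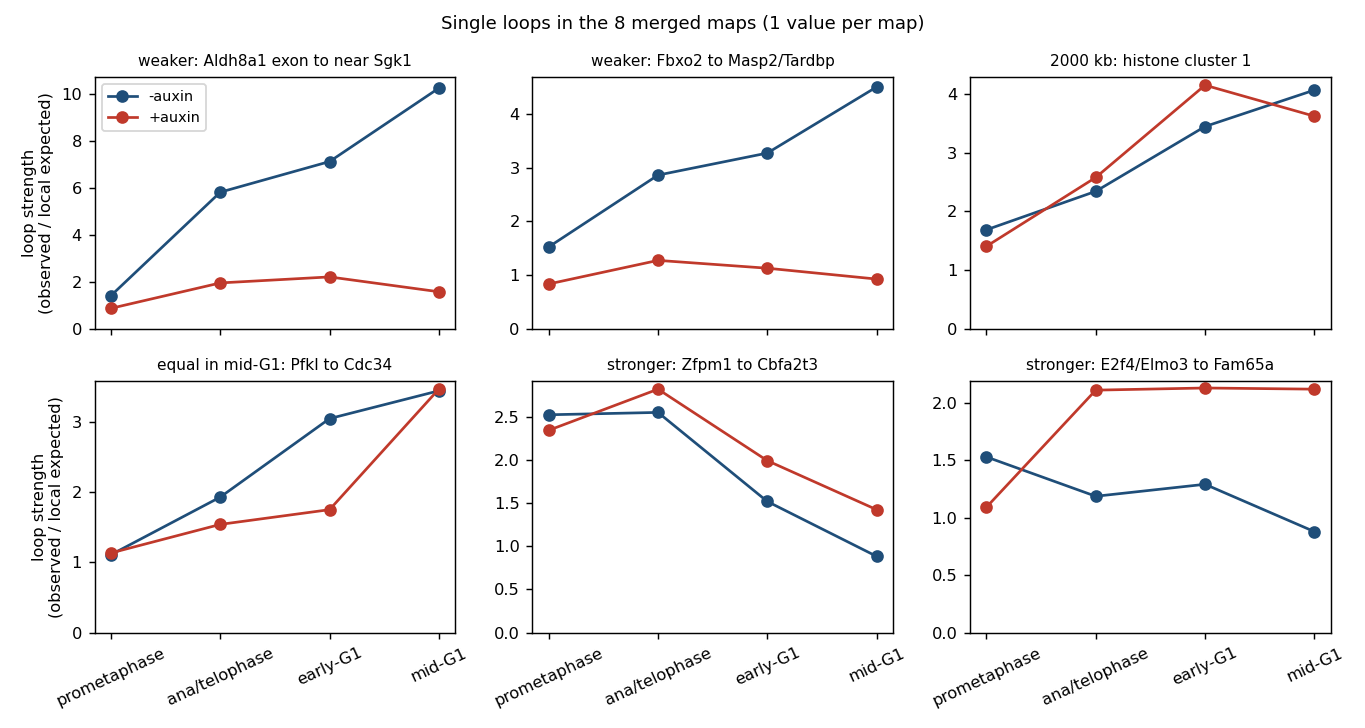
Strength of 6 long dual-function loops (observed over locally expected contacts, vertical axes of different height) at 4 stages in the -auxin (blue) and +auxin (red) merged maps, 1 value per map. The Aldh8a1 and Fbxo2 loops are lower with auxin at every stage, prometaphase included, the histone loop runs together in both treatments, the Pfkl loop meets in mid-G1, and the Zfpm1 and E2f4 loops are higher with auxin after mitosis.

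Genes of red cell development and of the cell cycle were taken from lists. The share of all protein-coding genes with a start at such an anchor was not measured. The counts of listed genes at anchors, here and below, therefore cannot be read as enrichment. Of 23 annotated erythroid regulators, 14 had a start at an anchor of a long dual-function loop, in 28 loops with a median mid-G1 change of 0.00, between -0.86 and 0.84. There were 7 at least 1.5 times weaker and 3 at least 1.5 times stronger, and 7 of the 28 were called only in +auxin cells. Over all 1609 loops the median was -0.41, with 39.1% at least 1.5 times weaker, 3.0% at least 1.5 times stronger and 16.0% called only in +auxin cells (36.7%, 2.83% and 14.6% of all loops). Several of the 28 loops lie at Zfpm1 and Cbfa2t3, and the Myc loops are among the 7 weaker ones. The 28 are thus not independent of each other.

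Myc, a growth regulator whose distal enhancers lie far downstream in blood cells, had 4 loops of 1610 to 1780 kb to sites on the same side. All 4 started in the same or neighbouring bins, so they are not separate measurements. The loop from the Myc start to a site outside protein-coding genes had 1.45, 5.23, 5.12 and 4.21 without and 0.95, 2.67, 3.63 and 2.65 with auxin. The 4 mid-G1 changes were -0.67, -0.66, -0.73 and -0.70. All were weaker with auxin in mid-G1, against 77.4% of the 1609 (77.1% of all loops). All were called only in -auxin cells, against 69.0% (71.1% of all loops).

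At Zfpm1, which encodes the GATA1 partner FOG-1, and Cbfa2t3, a corepressor of the same complex, loops differed in their course. The loop from an exon of Zfpm1 to an intron of Cbfa2t3 on chromosome 8 had 2.52, 2.55, 1.52 and 0.883 without and 2.34, 2.82, 1.99 and 1.42 with auxin. It thus stood highest in prometaphase and ana/telophase and lowest in mid-G1 in both treatments, with a mid-G1 change of 0.69. A neighbouring loop from the same Zfpm1 bin had 2.12, 2.61, 1.69 and 1.11 without and 1.75, 2.69, 2.30 and 1.62 with auxin. The loop of 1700 kb from Zfpm1 to Abcb10, a mitochondrial transporter of the haem pathway, had 1.30, 2.62, 2.36 and 3.8 without auxin, so it was higher after mitosis, and 3.39 in mid-G1 with auxin. The loop from Banp to Zfpm1 had 1.56, 2.37, 2.33 and 2.23 without auxin and a mid-G1 change of -0.22, and that from Fbxo31 to Cbfa2t3 had 1.58, 1.66, 3.18 and 1.90 and a change of 0.57.

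Other regulators went either way. Kit, the stem cell factor receptor, had 2.22 without and 1.23 with auxin in mid-G1, a change of -0.86. Gata2 had 3 loops with changes of -0.50, -0.82 and -0.42. The loops at Runx1 had 0.01 and 0.18 and that at Tal1 0.25. The loop from Hoxc6 to Cbx5 near Nfe2, the gene of an erythroid activator, had 2.65, 1.98, 1.56 and 1.34 without and 2.85, 3.6, 2.81 and 2.39 with auxin, a mid-G1 change of 0.84. The loop at Ikzf1 had 1.23 and 2.01, a change of 0.71.

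The haem and iron genes at anchors were 6 of 16, in 11 loops with a median change of -0.30. Cpox, the coproporphyrinogen oxidase of haem synthesis, accounted for 4 of them. Its loop to Dcbld2, 210 kb long, had 0.956, 2.54, 2.76 and 3.22 without and 1.37, 1.01, 1.30 and 1.06 with auxin, and the 4 changes ran from -1.62 to -1.04. They were the 4 loops of this list that were at least 1.5 times weaker, 4 of 11 against 39.1% of the 1609. The loop from Rpl13a to Ftl1, the ferritin light chain, had 0.979 and 1.37 and a change of 0.48.

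Of 19 annotated globin and red cell membrane genes, 6 were at anchors, in 6 loops with a median change of -0.12. The shorter of the 2 loops at Epb4.1, the protein 4.1 gene of the membrane skeleton, had a change of -0.90 and the other 0.06. The loop from Hba-x at the alpha-globin cluster to Stk10 had 1.39 and 1.69, a change of 0.29.

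Of 20 cell cycle genes 5 were at anchors, in 10 loops with a median change of -0.16, and of 13 genes of cohesin and CTCF 2, in 3 loops with a median of -0.64. The Pfkfb4 to Cdc25a loop, whose convergent motifs are printed above, had 1.41, 2.91, 4.35 and 4.95 without and 1.22, 1.69, 2.64 and 2.55 with auxin. It was the only one of the 10 that was at least 1.5 times weaker in mid-G1, where 39.1% of the 1609 and 36.7% of all loops were. The loop from Ccnd2, cyclin D2, to Parp11 had 3.94 and 3.23. At Pds5b, a cohesin regulator, one loop had 5.45 and 3.49 and another 1.58 and 0.422. The remaining loop of the cohesin and CTCF list, from an exon of Xpnpep1 to the start of Smc3, a cohesin core subunit, had 2.08 and 2.38, a change of 0.20, and was called only in +auxin cells.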

How the data were processed

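The authors aligned in situ Hi-C reads to mm9 through HiC-Pro, merged the replicates of each group and called loops with a modified HICCUPS on 10 kb and 25 kb maps, adding pixels supported by single replicates. Loop strength, as deposited, is the mean over 9 pixels of the ratio between observed contacts and those that a donut of surrounding pixels predicts. The deposited boundary strength is a signal, the difference ΔIS of unlogged insulation scores. Loop categories, first-call stages and boundary clusters are the authors' labels, and the 4 triptolide libraries were not used.

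Loops were taken from the table by category and size, with no further filter, and the log2 change was computed without a pseudocount. No loop of the set had a strength of 0. Groups came from the sample labels and column names. All loop and boundary coordinates lie within the chromosome lengths of NCBIM37 (16370 of 16370 loops). Loop size is the distance between anchor summits. Boundaries were counted within 20 kb of an anchor midpoint, and starts and CTCF core matches in 30 kb around it. Shares have Wilson 95% intervals, which cover counting error only. Scripts (Python 3.11.15, pandas 2.3.3) were tested on simulated data. Loops off chromosome 18 were named by rule: the 3 strongest in mid-G1 -auxin cells, the 3 most negative changes (-auxin strength at least 2, weaker at all 3 post-mitotic stages), the 3 largest positive changes (+auxin strength at least 1.5, stronger at all 3), the 3 smallest changes (at least 2.5 in both), the 3 longest, the 3 anchor bins most used, and loops with a listed gene's start at an anchor. The set, its rule and the gene lists were chosen with earlier results of these data known.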

Additional observations from a re-analysis of the deposited data

How the results depend on the processing

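No paired analysis was possible because the columns of the loop table used here carry no replicate numbers, being measured on merged replicates, and for the same reason no replicate was left out. Maps of single replicates were not analysed here. Of 81 alternative values, 58 kept their direction and stayed within the spread, 22 moved beyond it and 1 reversed. With 10 kb summits only, the median changes were -0.35 (ana/telophase), -0.52 (early-G1) and -0.58 (mid-G1), the shares in mid-G1 were 81.6% weaker and 50% at least 1.5 times weaker, 73.8% of loops were called only in -auxin and 11.5% only in +auxin cells, and the difference between long and short dual-function loops reversed to -0.11. Centring on all loops left median changes of -0.028, -0.050 and -0.032 after mitosis, with 52.4% weaker, 19.5% at least 1.5 times weaker and 13.1% at least 1.5 times stronger. A pseudocount of 0.5 gave 30.0% and 1.1% past 1.5 times. With 1 loop per anchor-sharing group, 71.2% were called only in -auxin cells. Boundaries at both anchors became 3.48% within 10 kb and 34.6% within 40 kb, and starts at both anchors 36.5% in the summit bin itself. Convergent motifs were found in 4.6% of the long dual-function loops, 7.02% with a shorter core and 2.36% in the summit bin. CRE loops called in -auxin cells lay inside 47.8%. The other alternatives were the strength filter at 1.5, a size limit of 300 kb, leaving out chromosome 3, medians for means and the log2 ratio of means, and none of them moved a value beyond its spread. For all of these moves the cause was not tested, except that fewer loops enter with 10 kb summits.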
